A study of Saccharomyces cerevisiae with 3 samples.

Results

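YHB1, SSU1 and FZF1 are 3 of the 5203 named yeast genes on the arrays, and they belong to a single regulatory circuit of Saccharomyces cerevisiae. They were picked from the data with results already known. YHB1 was selected on its mean, the lowest of the tested genes, SSU1 was selected on how far its values lay apart between arrays, and FZF1 was added as the regulator of both. Their values are therefore given as a description, with no test. Members were matched by gene symbol in the annotation of the array platform, and each had a single spot.

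The series holds 3 two-colour arrays. On each, Cy5-labelled RNA came from S288C cells exposed to 5 mM 2-aminobenzimidazole for 2 h, and Cy3-labelled RNA came from S288C cells left untreated for the same time. Both cultures grew exponentially at 25 °C in YPD, a rich glucose medium. 2-Aminobenzimidazole is a small aromatic amine that forms the core of the benzimidazole fungicides. The design text describes the replicates as independent biological samples, and the extra letter in the title of array 1 is not explained.

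YHB1 (YGR234W) encodes flavohaemoglobin, a haem and flavin enzyme that converts nitric oxide to nitrate and so protects cells from nitrosative stress. SSU1 (YPL092W) encodes the plasma membrane pump that exports sulfite, an intermediate of sulfate reduction that is toxic when it builds up. FZF1 (YGL254W) encodes a zinc finger transcription factor that activates SSU1, and that is required for the induction of both SSU1 and YHB1 by nitric oxide. Other transcripts known to depend on it are YNR064C, an epoxide hydrolase gene, YOR387C, a gene of unknown function, and DDI2 and DDI3, near-identical genes for an enzyme that hydrates cyanamide.

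After exposure the YHB1 transcript was lower on every array, SSU1 was higher on arrays 1 and 3 and lower on array 2, and FZF1 was modestly higher on both arrays that measured it. The values are log2 ratios of treated over untreated cells. The direction and the base of the logarithm are not written in the deposited table: treated over untreated is likely from the order of the channels in the labels, and in the opposite direction every higher becomes a lower. With treated cells always in Cy5 and 0 arrays with exchanged dyes, dye and treatment cannot be told apart for any gene.

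The log2 ratio of YHB1 was -3.27 on array 1, -1.08 on array 2 and -3.63 on array 3. All 3 values lay below 0, and array 2 stood well above the others. In linear terms YHB1 was 9.64-fold lower on array 1, 2.12-fold lower on array 2 and 12.4-fold lower on array 3. No named gene was lower than YHB1 on array 1, where 3062 genes had a value, or on array 3, where 5158 did. On array 2, however, 500 of 5044 genes were lower than YHB1. Its mean was -2.66 ± 1.38 (log2, SD, n = 3), which is a 6.32-fold lower level. The next lowest mean belonged to URA7, CTP synthase, at -2.54 ± 0.44, followed by ELO3, a fatty acid elongase, at -2.39 ± 0.76. YHB1 thus led this order by less than its own spread between arrays. Without array 2, the mean of YHB1 was -3.45.

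The log2 ratio of SSU1 was 3.08 on array 1, -1.06 on array 2 and 3.46 on array 3. SSU1 was thus 8.45-fold higher on array 1 and 11.0-fold higher on array 3, but 2.08-fold lower on array 2. Only 32 named genes were higher than SSU1 on array 1, and 30 on array 3, while on array 2 it was among the lower genes, with 517 of 5044 below it. The mean over all arrays, 1.83 ± 2.51 (log2, SD, n = 3), describes no single array, since its SD exceeds it. Without array 2, the mean was 3.27, and it was 1.20 without array 1 and 1.01 without array 3. The range of SSU1 over the arrays was 4.52 log2 units, against a median range of 0.89 over the 3039 genes measured on all arrays, of which 6 had a wider range. A wide range was the reason for picking SSU1, so this place is no separate result.

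FZF1 was measured on arrays 2 and 3, and its array 1 value is empty. Its log2 ratio was 0.89 on array 2 and 0.95 on array 3, which correspond to 1.86-fold and 1.93-fold higher levels. The 2 arrays differed by 0.06 log2 units for this gene. They differed by 2.54 for YHB1 and by 4.52 for SSU1, which was picked because its values differed between arrays. The mean of FZF1 was 0.92 ± 0.04 (log2, SD, n = 2). Values as high as these were common: 666 of 5044 genes (13.2%) were higher than FZF1 on array 2 and 738 of 5158 genes (14.3%) on array 3, and 251 of 5021 genes (5.00%) were at or above it on both.

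**Figure D1:**
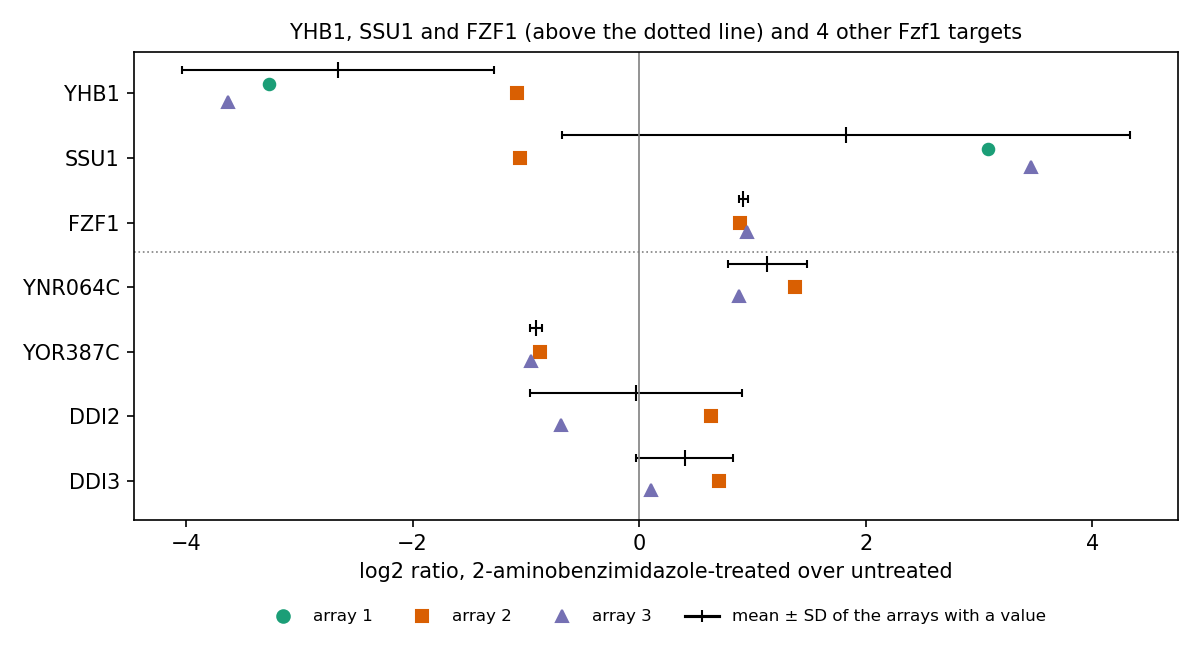
Log2 ratios of treated over untreated cells (x axis) for the 3 genes described here and 4 other genes that depend on Fzf1 (y axis), with a point for each array that has a value and a bar for the mean ± SD. YHB1 lies left of 0 on all arrays (-3.27, -1.08 and -3.63), SSU1 lies right of 0 on arrays 1 and 3 (3.08 and 3.46) but at -1.06 on array 2, and FZF1 lies at 0.89 and 0.95.

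Within each array, the relation of the 2 target genes also differed. The log2 ratio of SSU1 exceeded that of YHB1 by 6.35 on array 1 and by 7.09 on array 3, which are 81.5-fold and 136-fold differences in the ratio. On array 2 they differed by 0.03, with SSU1 at -1.06 and YHB1 at -1.08. The genes thus lay far apart on arrays 1 and 3 and together on array 2. FZF1 was higher than both on array 2, and lay between them on array 3.

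For both target genes, arrays 1 and 3 agreed and array 2 stood apart. The values on arrays 1 and 3 differed by 0.36 log2 units for YHB1 and by 0.38 for SSU1, below the median absolute difference of 0.46 between these arrays over 3039 genes. Array 2 generally differed a little more from the others, with median absolute differences of 0.56 from array 1 and 0.59 from array 3. Taking the mean of arrays 1 and 3 minus array 2, SSU1 stood at 4.33 and YHB1 at -2.37, where the median over all tested genes was 0.03. Of the 3039 genes, 6 exceeded SSU1 in this measure and 15 lay below YHB1. SSU1 was picked because its arrays differed, and the measure was formed around that difference. Its place in this order follows from the choice and is no separate result. What set array 2 apart for these genes was not tested.

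YHB1 was one of 114 genes (3.75% of 3039) that were at least 2-fold lower on every array. It was the only one of the 3039 that was at least 8-fold lower on both arrays 1 and 3. SSU1 was one of 275 genes (9.05%) that were at least 2-fold higher on arrays 1 and 3, and one of 19 (0.625%) that were at the same time at least 2-fold lower on array 2. With 8-fold in place of 2-fold on arrays 1 and 3, SSU1 was the only gene left of these 19. The 8-fold cut lies just under the array 1 values of SSU1, 8.45-fold, and YHB1, 9.64-fold. Both genes were picked from these data, so being the only gene past that cut does not show a pattern particular to them. HOM3, ALD5 and HIS4, also among the 19, had log2 ratios of 2.65, 2.65 and 2.76 on array 1.

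The genes most like each member were those with the smallest Euclidean distance between log2 ratios over the arrays on which the member had a value. Those nearest to SSU1, over 3 arrays, were HOM3, aspartate kinase, at a distance of 0.43, and ALD5, a mitochondrial aldehyde dehydrogenase, at 0.65. Next came HIS4, a histidine synthesis enzyme, at 0.81, and ARO3, an enzyme at the entry of aromatic amino acid synthesis, at 0.84. LEU4, an enzyme at the entry of leucine synthesis, lay at 1.00. HOM3 had log2 ratios of 2.65, -1.02 and 3.45 on arrays 1, 2 and 3. The value on array 2 was below 0 for each of these 5 genes, from -1.54 for HIS4 to -0.10 for LEU4.

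The genes nearest to YHB1 were less close to it. GCD6, a subunit of the nucleotide exchange factor of translation initiation factor eIF2, lay at a distance of 1.22. It had -2.56, -1.17 and -2.64 on arrays 1, 2 and 3. PHO11, an acid phosphatase gene with near-identical copies, lay at 1.24, SUI2, the alpha subunit of eIF2, at 1.55, AAH1, adenine deaminase, at 1.56, and NMD3, an export adaptor of the large ribosomal subunit, at 1.62. All 5 were lower on each array, and all were higher on array 2 than on arrays 1 and 3. For FZF1 the comparison covered only arrays 2 and 3 and separates genes poorly, since the nearest 5 all lay within 0.06. They were RAD4, a nucleotide excision repair factor, YOL163W, MAL11, a maltose transporter gene, YLL056C and MUK1, and each of them lacked a value on array 1, as FZF1 did.

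**Figure D2:**
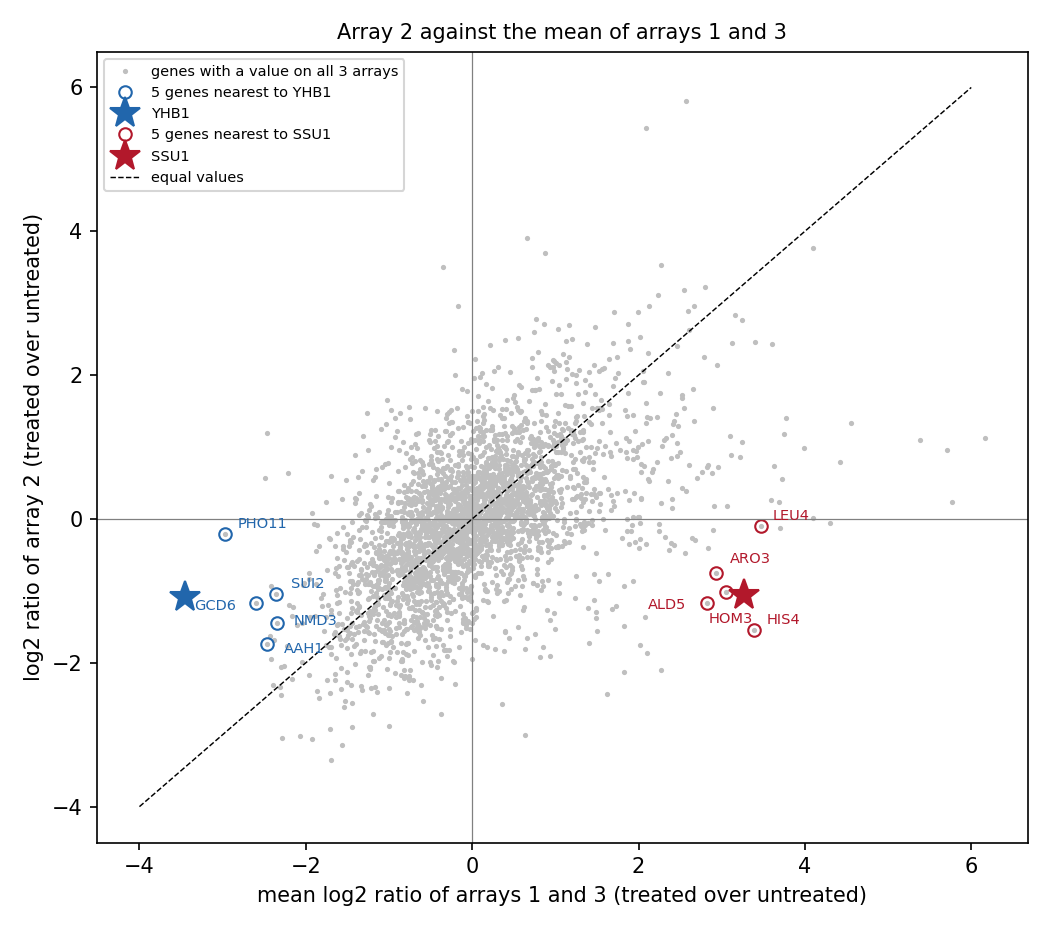
Log2 ratio of array 2 (y axis) against the mean log2 ratio of arrays 1 and 3 (x axis) for the 3039 genes measured on all arrays (grey points), with YHB1 and SSU1 as stars and the 5 genes nearest to each as open circles. The stars lie at nearly the same height, -1.08 and -1.06, at opposite sides of the x axis, -3.45 and 3.27.

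The other known targets of Fzf1 differed in sign. YNR064C had log2 ratios of 1.38 on array 2 and 0.88 on array 3, while YOR387C had -0.88 and -0.95. DDI2 stood at 0.63 on array 2 and -0.69 on array 3, and DDI3 at 0.71 and 0.10. The pair is near-identical in sequence, so its spots may detect both transcripts. None of these 4 genes had a value on array 1, and neither had FZF1, so 5 of the 7 genes of the circuit rest on arrays 2 and 3. Array 1 gave a value for 58.9% of the named genes, array 2 for 96.9% and array 3 for 99.1%. In limma with genes on at least 2 arrays, YNR064C had a mean of 1.13 ± 0.36 (log2, SE, n = 2; adjusted p = 0.0875) and YOR387C one of -0.91 ± 0.34 (log2, SE, n = 2; adjusted p = 0.132), and 0 of the 4 passed, with 1 higher and 1 lower at an unadjusted p below 0.05. In that fit 5.39% of 5043 genes passed as higher and 5.83% as lower, and at an unadjusted p below 0.05 the shares were 13.6% and 15.6%.

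The sulfite list covers the pathway in which sulfite is made and used, from sulfate uptake to the fixing of sulfide, with the makers of a cofactor. Its genes were read from the fit over all genes. That fit was an intercept-only limma model with Benjamini-Hochberg adjustment over the 3039 genes measured on all 3 arrays. In that fit 8.36% of genes were called higher and 9.64% lower at an adjusted p below 0.05. All 10 genes of the sulfite list had a value on arrays 2 and 3, and 3 had one on all arrays and were tested, of which 2 rose and 0 fell. MET10, a subunit of the sulfite reductase that consumes sulfite, rose with log2 ratios of 2.17, 0.65 and 3.61 on arrays 1, 2 and 3 and a mean of 2.14 ± 1.48 (SD, n = 3; adjusted p = 0.0329, limma). MET17, which fixes the sulfide made from sulfite into homocysteine, rose with 3.71, 1.40 and 3.84 and a mean of 2.98 ± 1.37 (SD, n = 3; adjusted p = 0.0151, limma). Both genes were lowest on array 2 but above 0 there, unlike SSU1.

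MET5, the other subunit of sulfite reductase, followed the signs of SSU1, with 2.08, -1.24 and 0.72 on arrays 1, 2 and 3. Its mean was 0.52 ± 1.67 (SD, n = 3; adjusted p = 0.545, limma), and of the alternatives run it passed only in the fit without array 2, together with MET10 and MET17. No other gene of the list was measured on array 1. On array 3, MET16, which reduces activated sulfate to sulfite, stood at 1.33, against 0.13 for MET14, adenylylsulfate kinase, and -0.41 for MET3, ATP sulfurylase. The sulfate permease genes SUL1 and SUL2 stood at 0.98 and 0.12 there. MET1 and MET8, which make the sirohaem cofactor of sulfite reductase, stood at 1.32 and 1.37. On array 2 these 7 genes all lay between -0.54 and 0.07. Of the 10 genes, 9 were above 0 on array 3 and 3 on array 2, where 47.8% and 51.7% of all named genes were. The median of the list was 1.15 on array 3 and -0.15 on array 2, against -0.04 and 0.03 for all named genes.

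Genes of nitrosative and oxidative defence were examined as the setting in which YHB1 acts. Of the 14 listed genes 12 were tested, of which 1 rose, 0 fell and 11 did not pass, against 8.36% higher and 9.64% lower among all tested genes, so the count shows nothing particular to the list. The median of their means was 0.16, against -0.04 for all tested genes. TRX2, a thioredoxin, rose with 1.06, 1.36 and 0.60 on arrays 1, 2 and 3 and a mean of 1.01 ± 0.38 (SD, n = 3; adjusted p = 0.0482, limma). That call was lost without array 2 (adjusted p = 0.0873, limma) and with genes on at least 2 arrays (adjusted p = 0.0566, limma). SFA1, which reduces S-nitrosoglutathione and is the other main enzyme against nitrosative stress, stood at -0.51, 0.31 and -0.34, with a mean of -0.18 ± 0.43 (SD, n = 3; adjusted p = 0.690, limma).

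Among the 12 tested genes of the defence list, the lowest means belonged to glutathione genes. GSH1, which makes the precursor of glutathione, stood at -0.80 ± 0.24 (adjusted p = 0.0793, limma), GSH2, glutathione synthetase, at -0.67 ± 0.17 (adjusted p = 0.116) and GLR1, glutathione reductase, at -0.52 ± 0.55 (adjusted p = 0.269). Beside TRX2, the highest of these 12 were SOD1, the cytosolic superoxide dismutase, at 0.76 ± 0.45 (adjusted p = 0.112, limma) and CCP1, mitochondrial cytochrome c peroxidase, at 0.70 ± 1.70 (adjusted p = 0.417). CCP1, a haem protein as YHB1 is, had 1.55, -1.26 and 1.81 on arrays 1, 2 and 3, the same signs as SSU1. The catalase genes CTT1 and CTA1, measured on arrays 2 and 3, were also below 0 on array 2 (-0.41 and -0.22) and above 0 on array 3 (2.03 and 1.54). Other genes of the list went the other way. AHP1 had 0.09, 1.40 and -0.73 on arrays 1, 2 and 3, and SFA1 and GLR1 were above 0 on array 2 alone. In the list as a whole, 6 of 14 genes were above 0 on array 2 and 8 on array 3, so it does not share the signs of SSU1.

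YHB1 transcription has been reported to respond to oxygen and haem, and genes that respond to these were examined for that reason. Of the 17 listed genes 16 had a value and 13 were tested, of which 1 rose, 1 fell and 11 did not pass, with a median of the means of -0.22. These shares are near those over all tested genes, 8.36% higher and 9.64% lower, so these counts do not set the list apart. HEM13, a haem synthesis enzyme that is induced when oxygen or haem is scarce, fell with -1.49, -1.17 and -1.29 on arrays 1, 2 and 3 and a mean of -1.31 ± 0.16 (SD, n = 3; adjusted p = 0.0213, limma). COX5B, the hypoxic form of a cytochrome oxidase subunit, rose with 1.64, 1.10 and 0.99 and a mean of 1.25 ± 0.35 (SD, n = 3; adjusted p = 0.0272, limma).

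No further oxygen and haem gene passed in the fit over all 3 arrays. ANB1, a hypoxic translation factor gene, stood at -0.87 ± 0.72 (adjusted p = 0.114, limma) and CYC1, cytochrome c, at -0.81 ± 1.01 (adjusted p = 0.191), with its lowest value of -1.97 on array 2. CYC7, the hypoxic cytochrome c, stood at 0.38 ± 0.24 (adjusted p = 0.352, limma) and CYB2, lactate dehydrogenase, at 0.34 ± 0.47 (adjusted p = 0.440). Of the regulator genes in the list, HAP1, which in S288C carries a retrotransposon insertion, stood at -0.19, 0.19 and 0.25 on arrays 1, 2 and 3. On arrays 2 and 3, HAP4, the activating subunit of a complex that drives respiratory genes, stood at 0.56 and -0.86, and ROX1, the repressor of hypoxic genes, at 0.13 and -0.27. HMX1, haem oxygenase, had 2.75 on array 2 and 1.45 on array 3 and passed with genes on at least 2 arrays (mean 2.10 ± 0.42, SE, n = 2, adjusted p = 0.0253, limma). In that fit 2 of the 16 list genes with a value passed as higher and 1 as lower. Among all 5043 genes of that fit the shares were 5.39% and 5.83%.

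**Figure D3:**
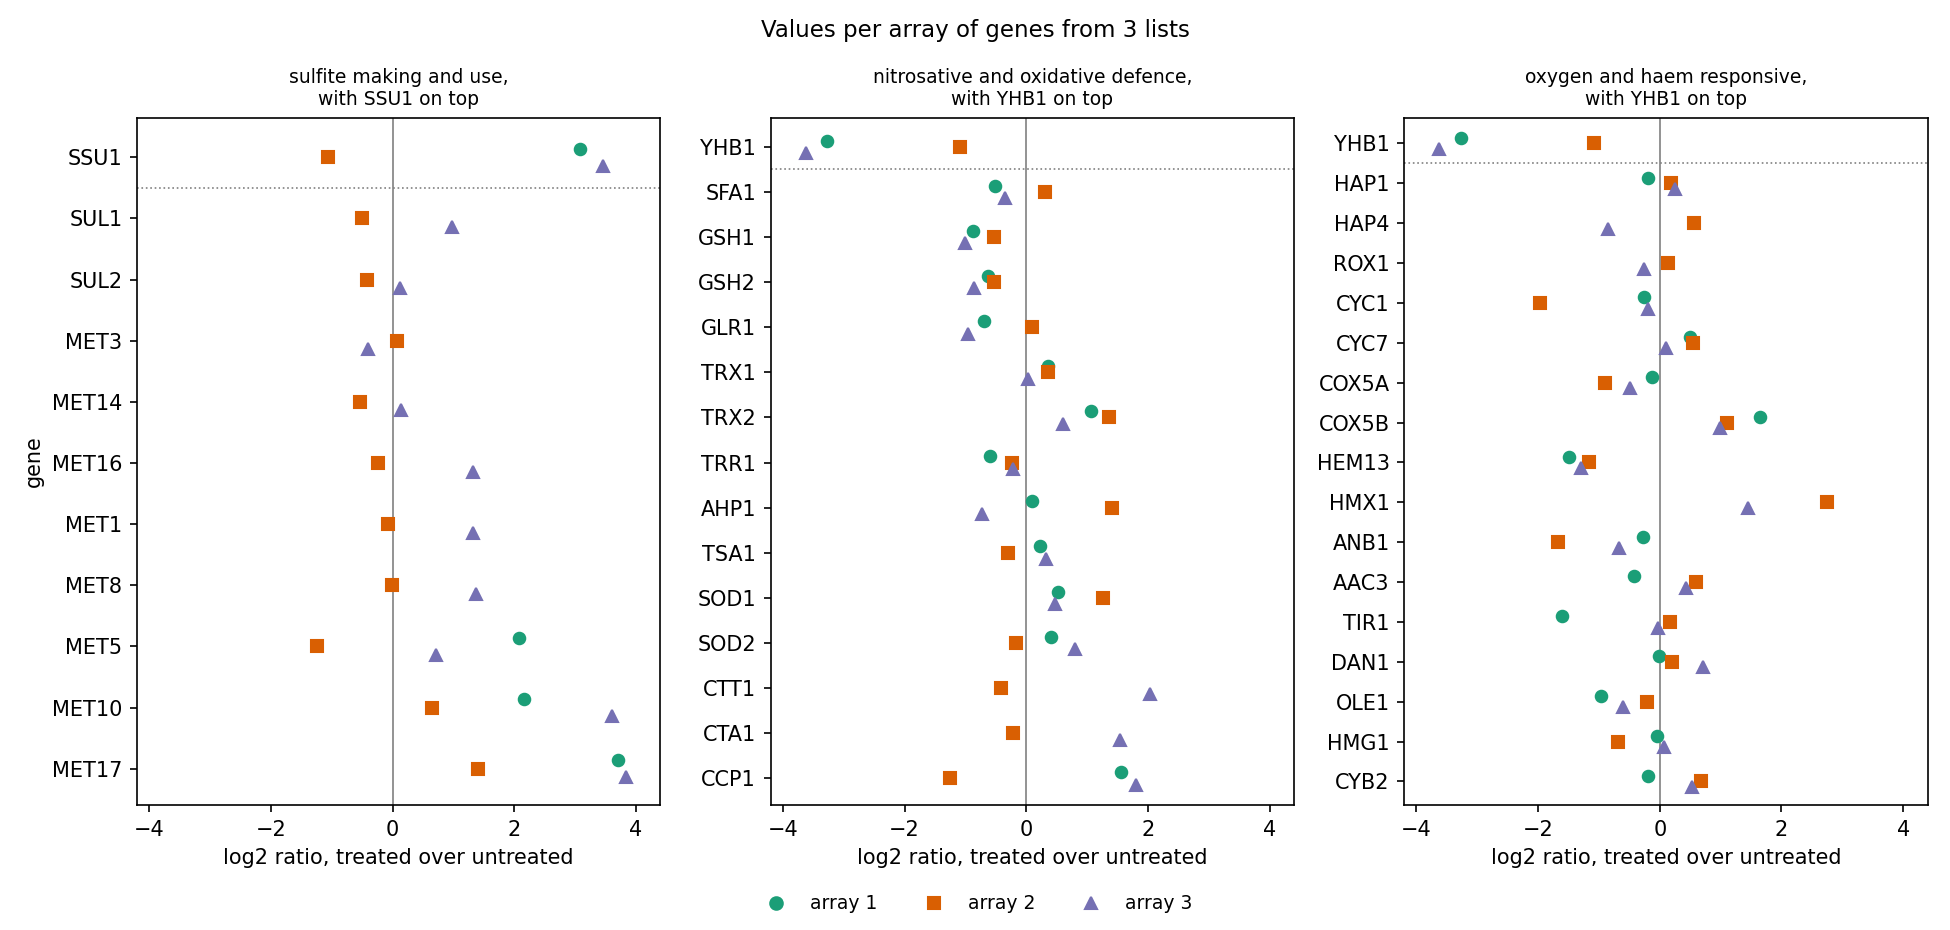
Log2 ratios of treated over untreated cells (x axis) on each array for the genes (y axis) of the sulfite list with SSU1 on top, the defence list with YHB1 on top and the oxygen and haem list with YHB1 on top. In the sulfite list 9 of 10 genes lie right of 0 on array 3 and 3 of 10 on array 2, and in the other lists TRX2 and COX5B lie right of 0 and HEM13 left of 0 on every array.

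The members do not lie next to each other. By their systematic names YHB1 and FZF1 are on opposite arms of chromosome VII and SSU1 is on chromosome XVI. The 2 named genes on each side of each member in the RefSeq table of assembly R64 were compared with it. Of these 12 neighbours 9 were tested, of which 0 rose, 2 fell and 7 did not pass, where 8.36% of all tested genes rose and 9.64% fell. Beside YHB1, NAS6, a proteasome assembly factor gene, stood at 0.35 ± 0.21 and PHO81, a cyclin-dependent kinase inhibitor gene of phosphate signalling, at -0.27 ± 0.36, far from the -2.66 of YHB1. MIC26, on the other side, had 0.23 on array 2 and -0.82 on array 3, and SPG1 had a value of 2.23 on array 2 alone.

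NOG1 and RPS6A, the neighbours that fell, lie on either side of SSU1. NOG1, a GTPase of large ribosomal subunit assembly, fell with -1.62, -1.75 and -1.90 on arrays 1, 2 and 3 and a mean of -1.76 ± 0.14 (SD, n = 3; adjusted p = 0.0130, limma). RPS6A, a ribosomal protein gene with a near-identical copy elsewhere in the genome, fell with -0.68, -1.44 and -1.48 and a mean of -1.20 ± 0.45 (SD, n = 3; adjusted p = 0.0337, limma). GLR1, which follows SSU1, and SEC62, a subunit of the protein translocation machinery, did not pass, with means of -0.52 and -0.19. Beside FZF1, ZRT1, the high-affinity zinc transporter gene, had 0.34, 0.43 and 2.29 and HXK2, hexokinase, had -2.01, -0.08 and -1.73 (adjusted p = 0.129 and 0.0710, limma). ADH4 had a mean of -0.50 ± 0.62, and RTG2 had 0.28 and -0.25 on arrays 2 and 3. No neighbour had the pattern of SSU1, positive on arrays 1 and 3 and negative on array 2. So few genes show little here, since only 0.625% of the 3039 genes had that pattern at 2-fold or more on each array.

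Each of the 7 calls named from the fit over all 3 arrays, MET10, MET17, TRX2, HEM13, COX5B, NOG1 and RPS6A, was lost without array 1 or without array 3, in which limma passed 0 of all 3039 genes although 635 and 715 had an unadjusted p below 0.05. Without array 2, 6 of the 7 remained, all but TRX2. HMX1, which passed on 2 values, was not part of these fits, and its call was not examined with an array left out.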

How the data were processed

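Per the labels, the authors LOWESS-normalised spots with flag value 0. The deposited table gives a log ratio, read here as log2, for 6272 spots on 3 arrays. Its highest value, 6.89, would be a ratio of 119 in base 2, of 986 as a natural log and of 7829460 in base 10. The sources used here name neither a background correction nor software. Intensities were not used, so brightness is unknown and precision rests on the number of arrays. Names came from the platform annotation and RefSeq R64: 5308 had 1 gene symbol, 0 several and 964 none here, and 5304 were found in RefSeq. Spots of a gene were averaged.

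Each gene was tested against a log ratio of 0 in limma (version 3.58.1, run in R version 4.3.3; intercept only, eBayes, two-sided, Benjamini-Hochberg) over 3039 genes, and the script was tested on simulated data. The members and lists were chosen with earlier results of these data known. Genes named were the members, the Fzf1 targets, the 3 highest, 3 lowest and all passing genes of the other lists, 2 neighbours on each side and the 5 nearest genes by Euclidean distance. Genes outside this rule (such as URA7, ELO3, SFA1, AHP1, HAP1, HAP4, ROX1, HMX1, the catalase genes and sulfite genes measured on 2 arrays) were chosen after seeing their values. The alternatives included centring, scaling, robust variance, array weights, genes on at least 2 arrays, all spots in place of named genes, a natural log reading and leaving out each array. A planned search of promoters for Fzf1 motifs was not run, as no sequence was used here.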

Additional observations from a re-analysis of the deposited data

How the results depend on the processing

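The sign of the mean stayed the same for YHB1, SSU1 and FZF1 under every alternative run, which adds no support, since the values themselves fixed it. Centring shifts each array by its median, which was -0.05, 0.02 and -0.04 on arrays 1, 2 and 3. Scaling and a natural log reading change no sign. Leaving out an array could not reverse the sign of the mean for YHB1 or FZF1, whose values all share 1 sign. Nor could it for SSU1, whose array 2 value is smaller in size than its other values. For FZF1, leaving out array 2 or array 3 left 1 value. SSU1 was negative on array 2, and its mean was 1.20 with an SD of 3.19 without array 1. Without array 3 its mean was 1.01 with an SD of 2.92. With arrays centred and scaled, the mean of FZF1 was 0.97, a shift of more than the SD of its 2 values. With arrays left out in turn, the count of genes called higher ranged between 0 and 373 and that of genes called lower between 0 and 366 (limma). Both counts were 0 without array 1 and without array 3. They were 373 and 366 without array 2, which leaves 2 arrays as well, so the number of arrays alone does not set the 0. Of the 7 calls named from the fit over all 3 arrays, each was kept with centred arrays, scaled arrays, robust variance and array weights, and 6 with genes on at least 2 arrays. Read as a natural log, the folds of the means would be 14.3 for YHB1, 6.22 for SSU1 and 2.51 for FZF1. After centring and scaling, the 5 nearest genes of each member were the same 5. Each log ratio compares treated with untreated cells on the same array, so the test against 0 is paired by array. All arrays form 1 group, with no further pairing between arrays. With 3 arrays per group no search for outlying arrays was made.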
